A study of Mus musculus with 15 samples.

Results

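Livers of 5 mice fed a Western diet with sugar water (WD SW) were compared with livers of 5 mice fed a chow diet with normal water (CD NW), all after 52 weeks of diet, and the comparison was made for genes outside the immune programmes. These 10 of the 15 arrays of the series were the members, chosen by the diet and tissue in their labels; the other 5 arrays held tumors of the same 5 WD SW mice and entered only the normalization and some descriptive values. The mice were males of an isogenic cross of 129S1/SvImJ and C57Bl/6J, young adult when the diets began. The Western diet was high in fat, and the sugar water held fructose and glucose. Each array was 1 liver of 1 mouse, hybridised to an Illumina mouse expression BeadChip. The WD SW mice, labelled 4N, 4R, 5N, 5R and 6L, each also gave a tumor array, so their livers came from tumor-bearing mice and the effects of diet and of bearing a tumor cannot be told apart. The CD NW mice were labelled 1L, 1R, 2L, 2N and 3N. Values per sample are given below in these 2 orders.

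The hepatocyte makes most plasma proteins, turns excess sugar and fat into triglyceride and cholesterol, makes bile acids, degrades amino acids and clears drugs and steroids. These tasks are divided along the lobule between periportal cells, which favour amino acid breakdown and urea synthesis, and pericentral cells, which favour glutamine synthesis and drug metabolism. In rodents the pulsed growth hormone of males and the steadier hormone of females set apart a group of sex-biased liver genes. Sterols that reach the liver from the diet lower the activity of the SREBP2 transcription factor and with it the genes of cholesterol synthesis.

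The tissue label held in the data. Of 13 measured hepatocyte markers, 0 passed the test at an adjusted p under 0.05, with a median log2 fold change of -0.16 (WD SW over CD NW), and their summed log2 level was 17.49 to 17.66 in WD SW livers and 17.64 to 17.77 in CD NW livers. Macrophage and monocyte markers moved the other way, with 13 of 15 measured members higher, beside 6.07% of all genes. Of the 10 above background on all 10 arrays, 8 were higher. Their summed log2 level was 12.96, 13.63, 13.80, 12.33 and 14.75 in WD SW livers, against 10.49 to 11.24 in CD NW livers. Of 10 neutrophil markers listed 3 were measured, S100a8, S100a9 and Csf3r, above background on 5 WD SW arrays and on 3, 3 and 0 CD NW arrays. They reached the 5 arrays needed for a test only with the WD SW livers, so no count over them is given as a result. Their summed log2 level was 9.13, 11.35, 8.75, 9.11 and 10.59 in WD SW livers, against 6.61 to 7.69 in CD NW livers. Of 12 measured markers of endothelium, 10 of stellate cells and 3 of bile duct, 0 were called. Mouse 5R was the lowest WD SW liver in 11 of the 12 endothelial markers, and 1 of them was higher without it. The stellate cell markers Col1a1, Col1a2, Col3a1 and Timp1 were too dim for a test, above background on 2, 1, 3 and 3 WD SW arrays and 0 CD NW arrays. So were Pdgfrb, above background on 1 array of each diet, and Tagln and Lox, on 0. Because whole tissue was assayed, fewer cells of a type and less RNA per cell cannot be told apart. The liver of mouse 5R was the nearest to tumors, which is why it was singled out. Its root mean square distance over all genes from the mean of the tumors of the other mice was 0.567 on the log2 scale, against 0.678 to 0.801 for the other 4 WD SW livers, and it is left out in a second comparison given beside the first. From the mean of the other WD SW livers mouse 6L lay farthest, at 0.589, against 0.543 for mouse 5R and 0.433 to 0.485 for the other 3.

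In all, 8429 genes had a probe above background on at least 5 of the 10 liver arrays, and 824 of them (9.78%) changed at a Benjamini-Hochberg adjusted p under 0.05 in limma. Of these, 512 were higher in WD SW livers (6.07%) and 312 lower (3.7%). Without mouse 5R the numbers were 964 changed (11.4%), 571 higher (6.77%) and 393 lower (4.66%). Genes called in both comparisons numbered 464 higher and 258 lower, with 0 of opposite sign. The 5 WD SW livers did not overlap the 5 CD NW livers in 852 genes (10.1%), and in 1236 genes (14.7%) with mouse 5R left out. A further 102 genes were called only with mouse 5R and 242 only without it. Cytokine, antigen presentation, complement and leukocyte genes, together with markers of cells other than hepatocytes, made up 344 of the genes tested, of which 132 were higher and 9 lower. The 8085 other genes described here held 380 that were higher (4.7%) and 303 that were lower (3.75%). The median log2 fold change of all genes was -0.05. Scaling the arrays by their medians in place of quantile normalization turned this median to 0.05 and gave 552 higher and 126 lower genes, so that 81.4% of calls were higher against 62.1% here. With the leading number of the mouse label as a random block 441 genes were called, and 522, 509 and 475 were called without CD NW mouse 1L, 1R or 2L.

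**Figure D1:**
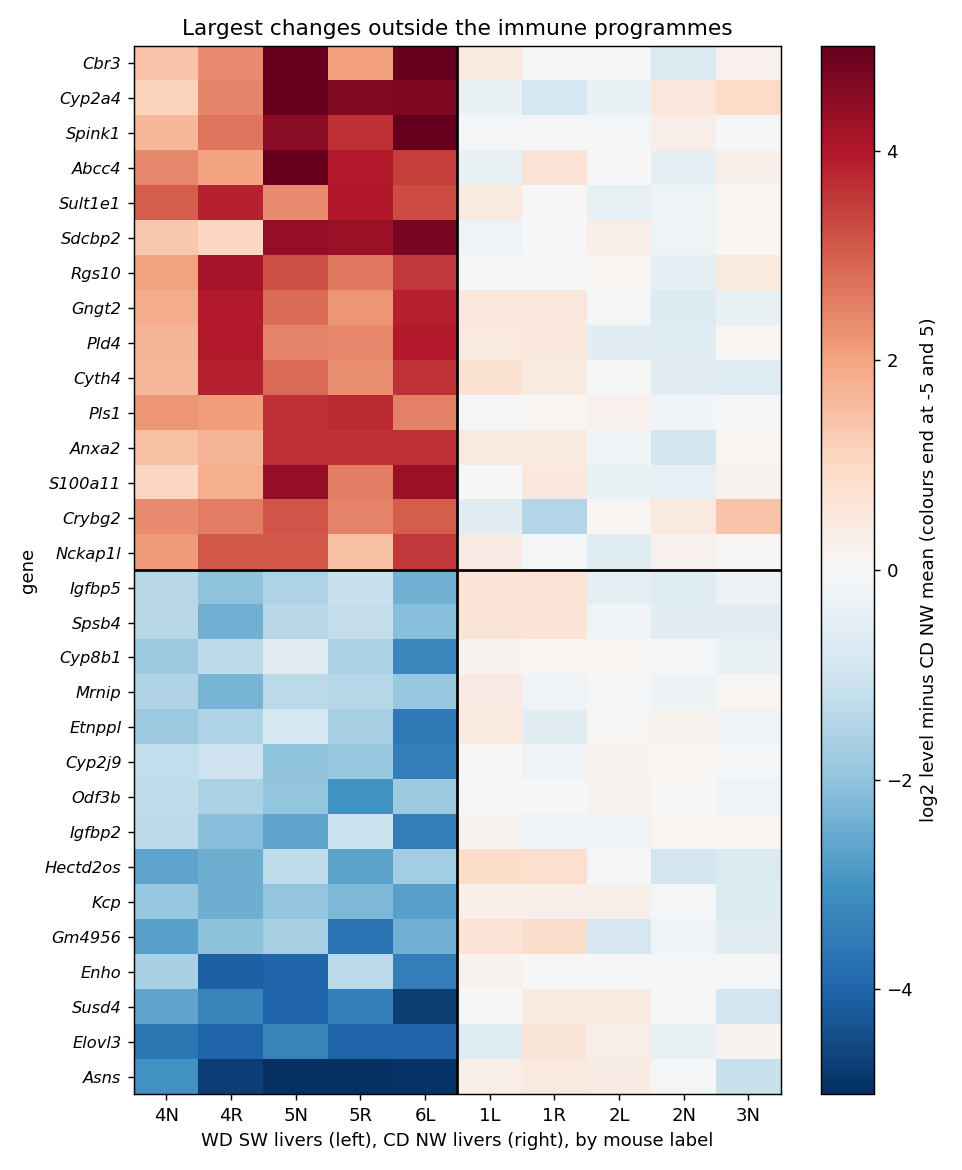
Log2 level minus the CD NW mean for the 15 genes with the largest rises (upper block) and the 15 with the largest falls (lower block) outside the immune programmes, with 1 column per liver (5 WD SW livers on the left, 5 CD NW livers on the right). For every gene shown the 5 WD SW livers lie on one side of all 5 CD NW livers, which the choice of genes required.

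The largest falls among genes that did not overlap between diets and were called with and without mouse 5R were in Asns, Elovl3, Susd4 and Enho. Hsd3b5, whose diets overlapped, had a lower log2 fold change and is given with the sex-biased genes. Asns, which encodes the asparagine synthetase that amidates aspartate, had log2 levels of 8.15, 6.46, 5.65, 5.93 and 6.29 in WD SW livers, against 11.50, 11.69, 11.56, 11.09 and 10.07 in CD NW livers. Mouse 4N was the highest WD SW liver and was still below the lowest CD NW liver, mouse 3N (log2 fold change -4.68 ± 0.45 SE, adjusted p = 0.000928 by limma). Elovl3, an elongase of saturated and monounsaturated fatty acids, had 4.63, 4.26, 4.93, 4.26 and 4.24, against 7.60, 8.87, 8.55, 7.89 and 8.39 in CD NW livers. It was above background on 0 WD SW arrays and on all 5 CD NW arrays and was at least 7.98-fold lower, where the bound sets the dim group to the lowest signal above background (adjusted p = 4.62e-05). Susd4, a membrane protein that restrains complement activation, had 6.49, 5.80, 5.15, 5.69 and 4.35 in WD SW livers, against 9.10, 9.55, 9.60, 9.11 and 8.18 (adjusted p = 0.00119). Enho encodes the secreted peptide adropin and had 7.51, 5.01, 5.15, 7.77 and 5.66 in WD SW livers, against 9.01 to 9.27 in CD NW livers. Mice 4N and 5R lay highest among the WD SW livers and still below every CD NW liver, and its log2 fold change was -2.89 ± 0.50 with mouse 5R and -3.28 without it.

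Igfbp2 and Igfbp5, secreted binding proteins of insulin-like growth factors, were in the same set. Igfbp2 had 9.86, 9.04, 8.54, 10.11 and 7.70 in WD SW livers, against 10.99 to 11.31 in CD NW livers (adjusted p = 0.00629), and Igfbp5 had 7.43, 6.81, 7.27, 7.69 and 6.41, against 8.21 to 9.51 (adjusted p = 0.00784). The diets did not overlap for either gene, and mouse 5R was the highest WD SW liver for both genes. Kcp, a secreted modulator of bone morphogenetic protein signalling, had 6.09, 5.53, 6.00, 5.74 and 5.26 in WD SW livers, against 7.29 to 8.28 in CD NW livers (log2 fold change -2.26 ± 0.23). The others of the 15 largest falls without overlap, Gm4956, Hectd2os, Odf3b, Cyp2j9, Etnppl, Mrnip, Cyp8b1 and Spsb4, had log2 fold changes between -2.50 and -1.69. Tumors of the WD SW mice averaged 6.24 for Asns, 4.85 for Elovl3, 4.77 for Enho and 8.88 for Igfbp2.

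The largest rises were chosen in the same way. Cbr3, a carbonyl reductase, had the largest fitted rise and the widest spread, with 6.49, 7.44, 12.34, 7.11 and 11.15 in WD SW livers, against 4.40 to 5.55 in CD NW livers. Mice 5N and 6L lay far above the other 3, and the call (adjusted p = 0.035) was lost without mouse 6L, without any 1 of the 5 CD NW livers, with the label number as a block, with no background correction, with normexp at an offset of 50 and with the authors' values. Abcc4, which pumps bile acids and nucleotides out of the cell into blood, had 7.25, 6.84, 10.19, 8.81 and 8.28 in WD SW livers, against 4.46, 5.51, 4.82, 4.34 and 5.08 (log2 fold change 3.43 ± 0.54, adjusted p = 0.00357), and 10.14 on average in the tumors. Spink1, a secreted trypsin inhibitor, had 6.20, 7.23, 9.05, 8.22 and 9.77 in WD SW livers and was above background on 0 of the 5 CD NW arrays, so that it was at least 6.17-fold higher (adjusted p = 0.00336). Spink1 is also known from pancreatic acinar cells. Of 13 acinar markers on the array 3 were measured, 0 were higher and 1 was lower, with a summed log2 level of 13.14 to 13.72 in WD SW livers and 13.43 to 13.81 in CD NW livers. The lipase-related Pnliprp1 was above background on 3 WD SW and 0 CD NW arrays, and Cpa1, Prss2, Try4 and Cel on 0 arrays of either diet. Their part in Spink1 was not tested.

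Pls1 encodes an actin bundling protein of microvilli, and Sdcbp2 a PDZ scaffold protein. Both were above background on 0 of the 5 CD NW arrays and on all 5 WD SW arrays, and they were at least 3.62-fold and at least 4.66-fold higher. For Sdcbp2 the WD SW livers split into 5.88 and 5.56 in mice 4N and 4R and 8.93, 8.83 and 9.25 in mice 5N, 5R and 6L. Crybg2 had 8.80 to 9.58 in WD SW livers, against 4.99 to 7.85 in CD NW livers. Rgs10, Gngt2, Pld4, Cyth4 and Nckap1l, which are known from leukocytes, had log2 fold changes of 2.66 to 3.10. In all 5 of these genes mouse 4N or 5R was the lowest WD SW liver and mouse 4R or 6L the highest. The summed macrophage markers were also lowest in mice 5R and 4N and highest in mouse 6L, and the part of those cells in these 5 genes was not tested.

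The WD SW livers differed from CD NW livers in genes that male mice normally express above or below females. Of 30 male-biased genes listed, 23 were measured, and 6 were lower and 0 higher, beside 3.7% and 6.07% of all genes. Their median log2 fold change was -0.90, and 2 of the 23 were above 0. Of the 19 above background on all 10 arrays, 3 were lower and 0 higher, with a median of -0.79. Beside them, 252 were lower and 247 higher of all 6873 genes tested with that filter. Hsd3b5, a male-specific steroid reductase of mouse liver, had 7.81, 4.35, 5.35, 4.82 and 4.50 in WD SW livers, against 6.55, 10.53, 12.41, 12.24 and 10.87 in CD NW livers. The groups overlapped in 1 animal each, as CD NW mouse 1L was below WD SW mouse 4N, and the log2 fold change was -5.15 ± 1.04 (adjusted p = 0.0106). Cyp7b1, the oxysterol 7-alpha-hydroxylase, had 12.48, 11.35, 11.39, 10.74 and 11.26, against 12.30, 13.17, 13.45, 13.38 and 12.72, with the same pair of mice overlapping (log2 fold change -1.56 ± 0.31). Elovl3 and Susd4, given above, Nat8, an acetyltransferase of cysteine conjugates, and C8b, a complement chain made in hepatocytes, were the other 4 members that fell, the last of them with adjusted p = 0.0349 with mouse 5R and 0.0528 without it.

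The major urinary proteins, which are among the most abundant male-biased products, did not pass. Mup20 had 13.52, 12.59, 13.93, 11.21 and 12.75 in WD SW livers, against 13.04 to 14.10 in CD NW livers (adjusted p = 0.206), Mup21 had adjusted p = 0.145 and Mup3 0.486. Mouse 5R was the lowest liver of all 10 for Mup20 and Mup21. Cyp2d9, a male-biased steroid 16-alpha-hydroxylase, had 13.33, 12.68, 13.48, 10.55 and 12.53 in WD SW livers, against 13.06 to 14.85 (adjusted p = 0.0756), and Cyp4a12a had 8.96 in mouse 5R, against 12.53 to 13.92 in the other 4 WD SW livers and 11.84 to 13.59 in CD NW livers (adjusted p = 0.755). The urinary proteins and several members of the Hsd3b, Cyp2a, Cyp2c, Cyp2d, Ces1 and Serpina1 families have near-identical copies, which a probe may not separate.

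Of 26 female-biased genes listed, 10 passed the filter on dim probes, and 5 were above background on all 10 arrays. Genes that are silent in CD NW males could pass only through the WD SW livers, so no count over them is given as a result. Sult1e1, the estrogen sulfotransferase, had 7.62, 8.42, 6.92, 8.58 and 7.82 in WD SW livers, was above background on 0 CD NW arrays and was at least 5.28-fold higher (adjusted p = 0.000779). Cyp2a4, a testosterone 15-alpha-hydroxylase, had 7.18, 8.47, 11.46, 10.65 and 10.69, against 5.69, 5.15, 5.70, 6.58 and 7.01 (adjusted p = 0.0102). In both genes every WD SW liver was above every CD NW liver, and mouse 4N came closest for Cyp2a4.

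Cyp17a1, the steroid 17-alpha-hydroxylase, had 11.43, 11.72, 9.86, 10.18 and 11.18 in WD SW livers, against 9.01, 7.32, 7.76, 8.42 and 8.81 (log2 fold change 2.61 ± 0.41, adjusted p = 0.00365). Ntrk2, the receptor of brain-derived neurotrophic factor, had 8.35, 8.06, 8.40, 7.73 and 7.86, against 5.74 to 7.10 (adjusted p = 0.00388). Cyp17a1 and Ntrk2 were both above background on every array of either diet, and their groups did not overlap. The tumors averaged 8.76 for Cyp17a1 and 5.39 for Ntrk2, within or below the CD NW range. Cyp2b9 had 7.93, 10.43, 8.36, 11.27 and 7.32 in WD SW livers, against 9.08, 6.31, 4.85, 5.85 and 6.12 (adjusted p = 0.0825), with CD NW mouse 1L above 3 of the WD SW livers. Without that mouse the call was made. Mouse 1L was low for the male-specific Hsd3b5 and high for the female-specific Cyp2b9 within the CD NW group. Of the other members, Acot3 is given with fatty acid oxidation and Hamp2 with iron, and A1bg (log2 fold change 1.33, adjusted p = 0.137), Tox (0.51, 0.361) and Cyp4a14 (1.45, 0.147) did not pass.

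**Figure D2:**
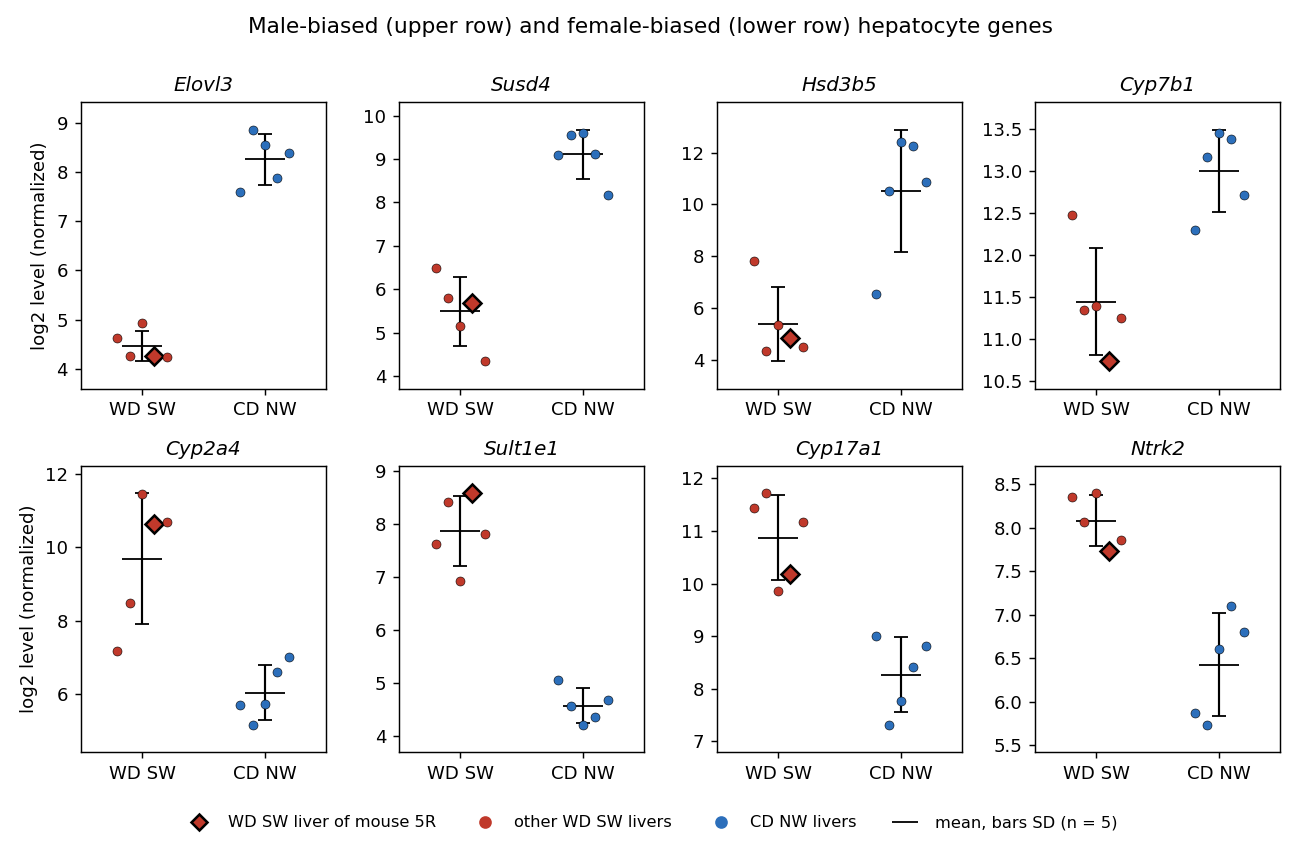
Log2 levels of 4 male-biased genes (upper row) and 4 female-biased genes (lower row) in WD SW livers (left) and CD NW livers (right), with mean and SD of 5 livers each and mouse 5R as a diamond. Elovl3 and Susd4 do not overlap between diets, and in Hsd3b5 and Cyp7b1 1 CD NW liver reaches the WD SW range.

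The growth hormone receptor, its kinase and the circulating hormone IGF1 did not pass the test on the brightest probe of each gene. Ghr, the growth hormone receptor, had 12.91, 12.93, 12.93, 13.05 and 12.06 in WD SW livers, against 12.75 to 13.17 in CD NW livers (adjusted p = 0.456). With the mean of its probes in place of the brightest one, Ghr was called lower (adjusted p = 0.0474 by limma). Igf1 had a log2 fold change of -0.21 ± 0.14 (adjusted p = 0.364), Igfals, which carries IGF in plasma, one of -0.18 ± 0.21 (0.634), and Jak2, the kinase of the receptor, one of 0.48 ± 0.15 (0.0734). Bcl6, a repressor of female-biased genes in male liver, had 7.42, 10.07, 8.71, 8.45 and 9.50, against 8.49, 11.11, 8.46, 8.19 and 8.02, so that the groups overlapped throughout (adjusted p = 0.986). Of 15 measured members of this list, Igfbp2 and Igfbp5 were lower and 0 higher, beside 3.7% and 6.07% of all genes. Both calls were lost when the tumors entered the fit as a further group. Stat5b and Cux2 were not among the genes tested.

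Asns belongs to the genes that respond to amino acid shortage through the transcription factor ATF4. Of 24 measured members of that response and of serine synthesis, 2 were lower (Asns and Cbs, 8.33%) and 2 higher (Nupr1 and Cebpg, 8.33%), beside 3.7% and 6.07% of all genes. Of the 20 above background on all 10 arrays, 2 were lower and 0 higher. Beside them, 252 were lower and 247 higher of all 6873 genes tested with that filter. The call of Cebpg was lost in 14 of 22 alternatives. Nupr1, a small nuclear stress protein, had 8.44, 7.25, 7.50, 9.67 and 8.54 in WD SW livers, against 6.08, 6.15, 6.16, 5.17 and 5.85 in CD NW livers (log2 fold change 2.40 ± 0.40, adjusted p = 0.00475). Every WD SW liver was above every CD NW liver, and mouse 5R was highest, as were the tumors with a mean of 10.27. Of 16 measured cytoplasmic tRNA synthetases, only Tars, which charges threonine, was called. It had 7.78, 7.15, 7.11, 7.05 and 7.80 in WD SW livers, against 8.78, 8.59, 8.24, 7.99 and 8.12 (log2 fold change -0.96 ± 0.21, adjusted p = 0.0148). Atf4 itself (adjusted p = 0.204), the stress factor gene Ddit3 (0.258), the hormone gene Fgf21 (0.102), the pseudokinase gene Trib3 (0.276) and Chac1, which degrades glutathione (0.91), did not pass. The groups overlapped in each of these 5 genes.

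The promoters of Asns, Nupr1 and Tars are printed because these 3 genes carry the same short element and moved in different directions. The element searched was TGATGNAAN on both strands, an ATF4-type amino acid response site, in RefSeq windows of 250 bases before to 50 bases after each start (build GRCm38.p6). It occurred in 3.95% of all 32851 windows and in 2.75% of the 6914 tested genes with a window. Of 40 measured members of the 2 lists, 31 had a window and 12 of those held the element, of which 1 was higher, 2 were lower and 9 did not pass. The 150 bases before each start follow, 5′ to 3′ on the strand of the gene, with the matched bases in capitals.
Asns (chr6:7693210-7693359, minus strand): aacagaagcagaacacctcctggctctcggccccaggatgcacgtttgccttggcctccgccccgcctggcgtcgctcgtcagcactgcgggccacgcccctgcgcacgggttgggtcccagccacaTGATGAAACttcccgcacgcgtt
Nupr1 (chr7:126625471-126625620, minus strand): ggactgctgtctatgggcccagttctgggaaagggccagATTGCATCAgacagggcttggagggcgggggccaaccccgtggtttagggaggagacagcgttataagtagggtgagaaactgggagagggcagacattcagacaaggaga
Tars (chr15:11399659-11399808, minus strand): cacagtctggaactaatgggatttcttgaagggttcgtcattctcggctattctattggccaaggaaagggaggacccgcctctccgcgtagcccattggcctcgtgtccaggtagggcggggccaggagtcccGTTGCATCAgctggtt
The match began 23 bases before the start in Asns, 111 in Nupr1 and 16 in Tars, on the strand of the gene in Asns and on the other strand in Nupr1 and Tars. A match is a description of letters only. Fgf21 and Chac1, which did not pass, also held the element.

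Of 11 measured genes of histidine, serine and glycine breakdown 4 were lower and 0 higher, beside 3.7% and 6.07% of all genes. Hal, which removes ammonia from histidine, had 11.79, 11.57, 11.32, 11.31 and 10.13 in WD SW livers, against 13.02, 12.88, 12.51, 12.09 and 12.62 in CD NW livers (log2 fold change -1.40 ± 0.28, adjusted p = 0.0111). Amdhd1, a later step of the same pathway, had 11.62, 11.45, 11.33, 11.39 and 10.35, against 12.68, 12.49, 12.13, 12.08 and 12.72 (log2 fold change -1.19 ± 0.23), and Ftcd, its last step, had 12.94, 13.07, 13.05, 12.83 and 12.36, against 13.45 to 13.75 (log2 fold change -0.69 ± 0.14). Mouse 6L was lowest for all 3, and none overlapped. Agxt, which detoxifies glyoxylate in peroxisomes, had 11.18, 11.02, 9.71, 11.11 and 10.31, against 11.95 to 12.41 (log2 fold change -1.45 ± 0.26, adjusted p = 0.00627). Cbs, which joins homocysteine and serine, had a log2 fold change of -0.77 ± 0.21, with adjusted p = 0.0401 with mouse 5R and 0.0655 without it, and lost its call in 12 of 22 alternatives. These were the 5 lower of 45 measured genes of amino acid breakdown, beside 3.7% of all genes, with 0 higher and a median of -0.27. Mouse 6L was the lowest WD SW liver in 31 of the 45 genes, and the median was -0.16 without it and -0.17 with array weights, which called 8 lower. Gldc, which cleaves glycine, was 10.84 in mouse 5R, 12.17 to 12.63 in the other 4 WD SW livers and 12.58 to 13.35 in CD NW livers, and passed only without mouse 5R (adjusted p = 0.0794 with it and 0.0349 without it). When the tumors entered the fit as a further group, Hal, Amdhd1 and Ftcd lost their calls, and 2 of the 45 genes were lower.

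**Figure D3:**
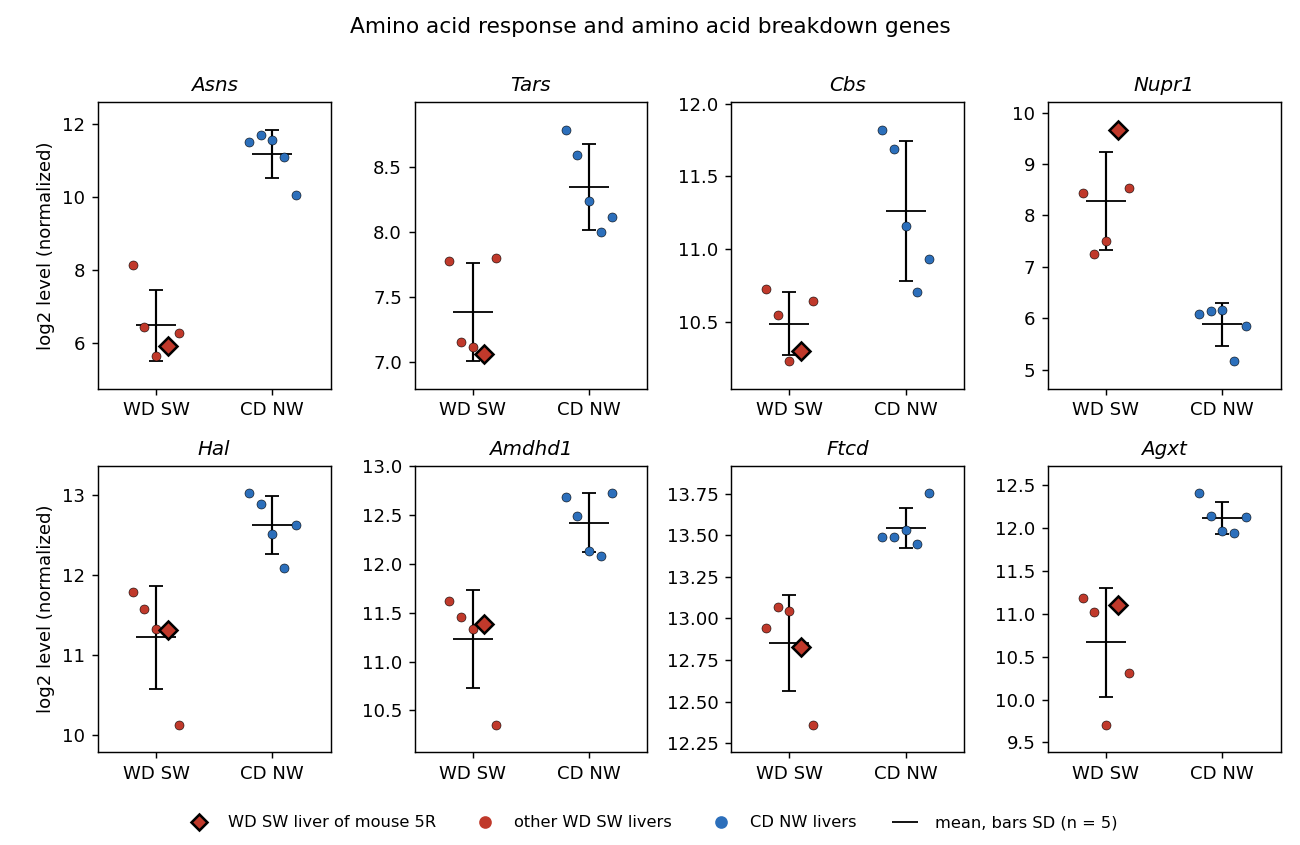
Log2 levels of genes of the amino acid response (upper row) and of amino acid breakdown (lower row) in WD SW livers (left) and CD NW livers (right), with mean and SD of 5 livers each and mouse 5R as a diamond. Nupr1 is higher and Asns, Tars, Hal, Amdhd1, Ftcd and Agxt are lower in all 5 WD SW livers than in all 5 CD NW livers, and Cbs overlaps.

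Periportal and pericentral genes were each counted. Of 24 measured periportal genes, 4 were lower (Hal, Agxt, Etnppl and Serpina1e) and 1 higher (Apoa4), beside 3.7% and 6.07% of all genes, and without mouse 5R 6 were lower and 1 higher. The median was -0.33, but -0.19 without WD SW mouse 6L, -0.22 without CD NW mouse 3N and -0.14 with array weights. Serpina1e, an alpha-1-antitrypsin copy, had 14.97, 11.56, 11.04, 12.30 and 12.05 in WD SW livers, against 14.93 to 15.14 in CD NW livers, so that mouse 4N stayed at the CD NW level and the other 4 were well below it. Its near-identical neighbour Serpina1c had 14.83, 14.70, 14.30, 14.11 and 14.21, against at least 14.83 in every CD NW liver, and was called only with mouse 5R (adjusted p = 0.049 and 0.0794). Of 25 measured pericentral genes, Rhbg, an ammonia transporter, was higher and 0 were lower. It had 8.56, 6.33, 7.30, 9.90 and 7.46 in WD SW livers, against 5.29 to 6.25 (adjusted p = 0.0396). Its call was lost in 14 of 21 alternatives, among them the authors' values and leaving out any 1 of 4N, 5N, 6L, 1L, 1R, 2L, 2N and 3N. Mouse 5R was highest for Rhbg and also for Glul, the glutamine synthetase of pericentral cells, at 11.62 against 8.89 to 10.34 in the other 4 WD SW livers and 8.75 to 9.55 in CD NW livers (adjusted p = 0.187). The tumors averaged 10.69 for Rhbg and 12.43 for Glul. Of 9 measured feedback targets of beta-catenin, 0 were called.

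Genes of cholesterol synthesis were lower in WD SW livers, and of all lists this one gained the most calls when mouse 5R was left out. Of 33 genes listed 21 were measured. With all 5 livers 8 of these were lower and 0 higher, beside 3.7% and 6.07% of all genes, with a median of -1.24. Without mouse 5R 14 were lower and 0 higher, beside 4.66% and 6.77% of all genes, with a median of -1.61. Sqle, the squalene epoxidase, had 7.75, 7.69, 8.34, 10.66 and 6.32 in WD SW livers, against 10.69, 11.34, 10.52, 9.67 and 10.92 in CD NW livers. Mouse 5R lay inside the CD NW range and the other 4 were all below it (log2 fold change -2.48 ± 0.64, adjusted p = 0.0333, and -3.10, adjusted p = 0.00161, without mouse 5R). With all livers the call of Sqle was lost in 10 of 22 alternatives, among them leaving out any 1 of 4N, 4R, 5N, 6L, 1L, 1R, 2L and 3N. Idi1, which isomerises isopentenyl diphosphate, had 7.45, 6.86, 7.36, 9.03 and 5.84, against 8.86 to 9.63, and Cyp51, the lanosterol demethylase, had 7.70, 7.48, 8.20, 10.03 and 6.60, against 9.55 to 10.51. Nsdhl, a sterol dehydrogenase, had 5.66, 5.67, 6.58, 7.77 and 4.79, against 7.34 to 8.79. The same order held across the list, as mouse 5R was the highest WD SW liver in 19 of the 21 genes and mouse 6L the lowest in 18. Mouse 5R lay within the CD NW range in 12 of the 21 genes, against 2 to 6 genes for each other WD SW liver.

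Srebf2, which encodes the SREBP2 factor, had 7.32, 7.05, 6.64, 7.85 and 6.61 in WD SW livers, against 7.89 to 8.35 in CD NW livers (log2 fold change -0.98 ± 0.23), and Scap, the escort of SREBP2, had 8.71, 7.66, 8.07, 8.72 and 7.81, against 8.93 to 9.32. For both genes mouse 5R was highest but still below the CD NW range. Tm7sf2, a sterol reductase, and Dhcr7, the last step to cholesterol, were the other 2 members called with all 5 livers. Msmo1, Hsd17b7, Pmvk, Mvd, Lss and Fdps, all enzymes between mevalonate and cholesterol, passed only without mouse 5R. Msmo1, for example, had 10.28, 9.65, 10.57, 12.24 and 8.64 in WD SW livers, against 10.95 to 12.36 (adjusted p = 0.0893 with mouse 5R and 0.00787 without it). Insig1, the sterol-sensing anchor of SREBP, passed in neither comparison (adjusted p = 0.235 and 0.0623). The tumors averaged 8.96 for Sqle and 10.81 for Msmo1. With all 5 WD SW livers the count of lower genes was 1 without CD NW mouse 1L, 0 without CD NW mouse 1R, 3 without WD SW mouse 4R, 3 without CD NW mouse 2L, 4 without WD SW mouse 5N, 5 without WD SW mouse 6L, 5 without CD NW mouse 3N and 3 with the label number as a block, while the median stayed between -1.61 and -0.81 in all settings tried.

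**Figure D4:**
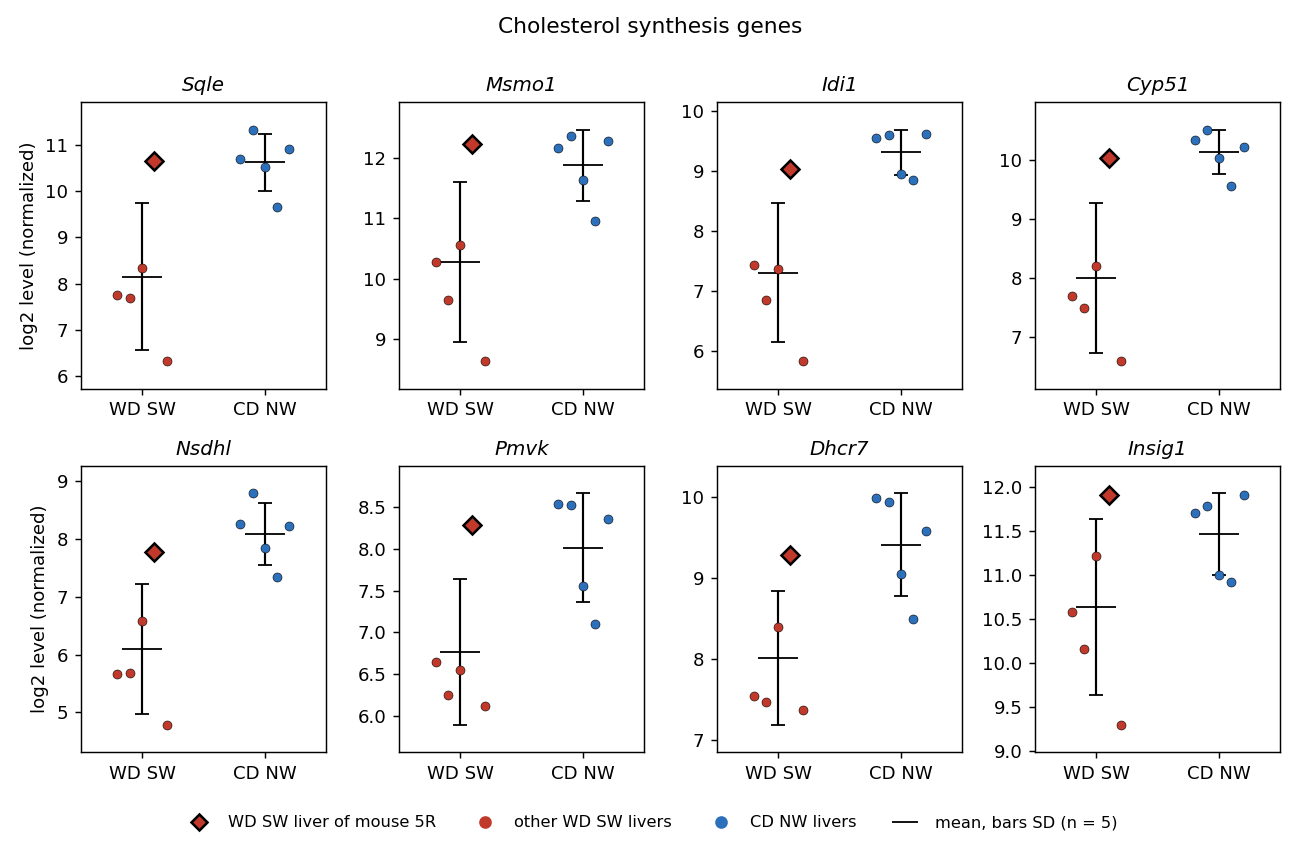
Log2 levels of 8 genes of cholesterol synthesis and its control in WD SW livers (left) and CD NW livers (right), with mean and SD of 5 livers each and mouse 5R as a diamond. Mouse 5R is the highest WD SW liver in every panel, at 10.66 for Sqle beside 6.32 to 8.34 in the other 4.

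Genes of lipid droplets were counted with Pparg and its targets. Pparg, the fat-storing nuclear receptor, had 7.89, 8.56, 8.90, 8.66 and 8.45 in WD SW livers, against 7.37, 7.24, 7.55, 7.69 and 6.76 in CD NW livers (log2 fold change 1.17 ± 0.22, adjusted p = 0.00712). Cidec, a PPAR gamma target that enlarges lipid droplets, had 5.90, 7.15, 9.06, 5.28 and 8.02, was above background on 0 CD NW arrays and was at least 3.05-fold higher (adjusted p = 0.0287). Mouse 5R was the lowest WD SW liver for Cidec, and the adjusted p without it was 0.00618. Its call was lost in 11 of 21 alternatives, among them no background correction, normexp at an offset of 50, the authors' values, the label number as a block and leaving out any 1 of 4R, 6L, 1L, 1R, 2L, 2N and 3N. Plin4, a droplet coat protein, had 9.69, 10.17, 9.47, 7.60 and 10.26, against 6.17, 5.81, 9.09, 9.10 and 8.04, and did not pass (adjusted p = 0.139). Of 15 measured droplet genes, Pparg and Cidec were the 2 called, beside 6.07% of all genes higher. Of 22 measured genes of fatty acid synthesis, Scd1, the stearoyl-CoA desaturase, was called with all 5 livers, at 14.73, 14.76, 14.96, 14.93 and 14.33 against 13.78 to 14.44 (log2 fold change 0.55 ± 0.16, adjusted p = 0.048), but not without mouse 5R (0.0794). Srebf1, which drives that pathway, had a log2 fold change of 0.25 ± 0.38 (adjusted p = 0.718), and Fasn and Acaca were not among the genes tested.

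Of 37 measured genes of fatty acid oxidation and ketogenesis, 2 were higher (5.41%) and 1 lower (2.7%), near the 6.07% and 3.7% of all genes, with a median of -0.03. Acsl4, which activates arachidonate, had 6.89, 6.97, 7.41, 7.50 and 6.40 in WD SW livers, against 5.78 to 6.33 in CD NW livers (log2 fold change 0.91 ± 0.21). Acot3, a peroxisomal thioesterase that is also female-biased, had 7.90, 10.35, 8.46, 10.90 and 6.85, against 5.06 to 6.87. Etfb, an electron carrier of beta-oxidation, had 12.57 to 12.79, against 12.85 to 12.99, a fall of small size (log2 fold change -0.30 ± 0.08, adjusted p = 0.0386). Ppara, which controls this programme, had a log2 fold change of 0.13 ± 0.33 (adjusted p = 0.844). Apoa4, an apolipoprotein of triglyceride-rich particles, had 12.30, 12.75, 13.81, 11.39 and 12.91, against 9.94 to 10.65, and was the single gene called among 16 measured of lipoprotein assembly (log2 fold change 2.43 ± 0.36, adjusted p = 0.0028). Mouse 5R had the lowest Apoa4 level of the WD SW livers and was above all CD NW livers.

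In bile acid synthesis, 2 of 17 measured genes were lower and 0 higher, beside 3.7% and 6.07% of all genes, and both calls were lost when the tumors entered the fit as a further group. Cyp8b1, which sets the cholic acid share, had 11.38, 11.88, 12.61, 11.60 and 9.89 in WD SW livers, against 12.84 to 13.37 in CD NW livers (log2 fold change -1.70 ± 0.39, adjusted p = 0.0188), and Cyp7b1 of the alternative pathway is given above. Cyp7a1, the rate-limiting enzyme, had 12.22, 12.71, 11.50, 13.13 and 10.51, against 10.15, 10.98, 9.52, 11.19 and 8.73, and its adjusted p was 0.0508 with mouse 5R and 0.0842 without it. Mouse 6L was the only WD SW liver inside the CD NW range for Cyp7a1, and without it the call was made. The uptake carrier Slc10a1 had 6.74, 6.69, 6.15, 6.46 and 5.23, against 7.27 to 7.91 (adjusted p = 0.0136), while the basolateral exporter Abcc4 was higher, as given above. Abcc6, an exporter of hepatocytes whose loss causes ectopic mineralisation, had 9.74, 9.41, 9.14, 9.91 and 8.96, against 10.13 to 10.30 (log2 fold change -0.79 ± 0.17). The organic anion carriers Slc22a28 and Slc22a30 were lower (log2 fold changes -1.20 and -0.98), and the dicarboxylate carrier Slc13a3 was higher with all 5 livers (1.41 ± 0.40, adjusted p = 0.0455) but not without mouse 5R (0.0737). In total 4 of 18 measured transporters were lower and 2 higher, beside 3.7% and 6.07% of all genes. Abcc4 was above background on 1 CD NW array and on 5 WD SW arrays. Of the 15 transporters above background on all 10 arrays, 3 were lower and 0 higher. Beside them, 252 were lower and 247 higher of all 6873 genes tested with that filter.

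Of 28 measured P450 genes of families 1 to 3, Cyp2j9, Cyp2d13 and Cyp2d10 were lower, beside 3.7% of all genes. Cyp2a4, Cyp2c38 and Cyp2c39 were higher, but each was above background on fewer than 5 CD NW arrays, and of the 21 genes above background on all 10 arrays 0 were higher and 2 lower. Cyp2c39, a retinoic acid hydroxylase, had 7.39, 6.82, 6.33, 7.74 and 6.37 in WD SW livers, against 4.53 to 5.87 in CD NW livers, and Cyp2c38 had 7.01, 6.81, 6.35, 8.31 and 6.75, against 4.92 to 6.09. Mouse 5R was highest in both, and the tumors averaged 8.33 and 9.03. Cyp2j9 had 8.09, 8.26, 7.31, 7.42 and 5.88, against 9.13 to 9.47 (log2 fold change -1.91 ± 0.37, adjusted p = 0.0083). Among 32 conjugating enzymes 3 were higher (Sult1e1, Ugt2b34 and Ugt3a1) and 2 lower (Sult5a1 and Nat8), beside 6.07% and 3.7% of all genes, and Sult5a1 had 6.64, 5.19, 4.76, 4.66 and 4.29, against 6.58 to 8.06. The carboxylesterases, which hydrolyse esters of drugs and lipids, held 3 lower and 0 higher among 16 measured with epoxide hydrolases, beside 3.7% of all genes lower. Ces1e had 9.61, 10.05, 9.62, 9.92 and 8.17, against 10.46 to 10.93, Ces1f had 11.03 to 12.31, against 12.26 to 12.55, and Ces2a had 4.71 to 5.94, against 5.77 to 6.89. The call was lost in 8 of 22 alternatives for Ces1e, 12 of 22 for Ces1f and 11 of 21 for Ces2a. Across all settings the count of lower genes in this list ran from 0 to 4.

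Of 21 measured NRF2 targets outside glutathione metabolism, Hmox1, Cbr1, Cbr3 and Akr1b10 were higher and 1 was lower, beside 6.07% and 3.7% of all genes. Of the 17 above background on all 10 arrays, 1 was higher and 1 lower. Beside them, 247 were higher and 252 lower of all 6873 genes tested with that filter. Hmox1, which opens the heme ring, had 7.16, 7.67, 7.58, 6.73 and 8.21 in WD SW livers, against 4.70 to 5.90 in CD NW livers (log2 fold change 2.13 ± 0.30, adjusted p = 0.00251). Hmox1 is also expressed in macrophages, and the macrophage sums given above are likewise lowest in mouse 5R and highest in mouse 6L, whose part in it was not tested. Cbr1, a carbonyl reductase, had 9.54, 9.85, 10.85, 9.67 and 9.86, against 8.60 to 8.95, and Akr1b10, an aldo-keto reductase, had 6.52, 7.92, 7.62, 6.56 and 8.41, against 5.51 to 5.97. Neither gene overlapped between diets. Nqo1, a quinone reductase, had 5.86, 5.97, 8.02, 6.04 and 7.05, against 4.73 to 5.72, and its adjusted p was 0.052 with mouse 5R and 0.0439 without it. Aox3, an aldehyde oxidase, was the lower member, with 11.65, 10.90, 12.23, 11.98 and 10.90, against 12.52 to 12.85 (log2 fold change -1.14 ± 0.25). Among 29 genes of glutathione transfer and use 2 were higher (6.9%), near the 6.07% of all genes, and 0 lower, beside 3.7%. The 2 were Gstm2 (log2 fold change 1.23 ± 0.27) and Gpx3 (1.01 ± 0.28), and Gpx3 lost its call in 10 of 22 alternatives. Gstm2 averaged 14.77 in the tumors.

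Sphingolipid enzymes held 4 higher and 1 lower of 17 measured, beside 6.07% and 3.7% of all genes, and 3 higher and 1 lower of the 13 above background on all 10 arrays. Kdsr, which makes dihydrosphingosine, had 9.78, 9.51, 9.86, 9.93 and 10.03 in WD SW livers, against 8.70 to 9.20 in CD NW livers (log2 fold change 0.89 ± 0.14, adjusted p = 0.00388). Smpd3, a neutral sphingomyelinase that releases ceramide, had 7.95, 6.91, 7.57, 6.60 and 8.42, against 4.41 to 5.83 (log2 fold change 2.24 ± 0.36). Every WD SW liver was above every CD NW liver for Kdsr and Smpd3. Asah1, which degrades ceramide, rose by 0.71 ± 0.15 and Ugcg, which glucosylates it, by 0.62 ± 0.14 on the log2 scale, while Sphk2, which phosphorylates sphingosine, had a log2 fold change of -0.65 ± 0.15. Lysosomal genes held 4 higher (Ctsa, Ctsb, Ctss and Hexa) and 0 lower of 23, beside 6.07% of all genes higher. Of the 21 above background on all 10 arrays 3 were higher, and Ctss is also a macrophage marker. The call of Ctsa was lost with the mean of its probes, and that of Ctsb in 12 of 22 alternatives.

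Metal and iron genes included a large fall in 4 of the 5 livers. Slc30a10, a manganese exporter of hepatocytes, had 6.08, 5.96, 5.90, 5.50 and 8.68 in WD SW livers, against 9.19, 9.64, 8.79, 8.14 and 7.94 in CD NW livers (log2 fold change -2.32 ± 0.56, adjusted p = 0.024), and mouse 6L alone lay inside the CD NW range. This call was lost without WD SW mouse 4R or 5N, without CD NW mouse 1L, 1R or 2L and with the label number as a block. Tfrc, the transferrin receptor, had 9.08, 9.70, 9.55, 8.87 and 9.16, against 7.57 to 8.77 (log2 fold change 1.22 ± 0.23, adjusted p = 0.00758). Lcn2, a siderophore-binding protein, had 13.28, 13.09, 11.62, 10.81 and 15.08, against 8.31 to 10.94, and lost its call in 9 of 22 alternatives. Lcn2 is abundant in neutrophils, whose summed markers are given above, and their part in it was not tested. Hamp, the iron hormone hepcidin, had a log2 fold change of -0.26 ± 0.13 (adjusted p = 0.215), and its paralog Hamp2 had 8.49, 11.59, 11.33, 12.30 and 6.52, against 6.82 to 7.87 (adjusted p = 0.0844).

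Several genes of annexins and actin-binding proteins were higher in WD SW livers. Of 23 measured genes of keratins and cytoskeleton, 6 were higher and 0 lower, beside 6.07% and 3.7% of all genes, with a median of 0.61, and 5 were higher of the 20 above background on all 10 arrays. Anxa2, a calcium-dependent membrane protein, had 10.21, 10.46, 12.41, 12.44 and 12.42 in WD SW livers, against 7.86 to 9.27 in CD NW livers, and S100a11, a calcium-binding S100 protein, had 8.33, 9.10, 11.68, 9.84 and 11.58, against 6.88 to 7.82. Anxa5 had 10.39 to 12.04, against 7.94 to 9.29, and Tagln2, an actin-binding protein, had 8.93, 9.14, 8.95, 9.40 and 10.61, against 6.56 to 7.28. None of these 4 genes overlapped, and the tumors averaged 12.65 for Anxa2 and 8.37 for Tagln2. Tmsb4x, which sequesters actin monomers and is abundant in leukocytes, had 11.14, 12.35, 12.28, 11.08 and 12.98, against 9.21 to 10.11. Pkm, the pyruvate kinase that adult hepatocytes express at low levels, had 7.18, 8.88, 8.86, 7.82 and 9.72, against 5.83 to 6.63 (log2 fold change 2.11 ± 0.40, adjusted p = 0.00838). For Tmsb4x and Pkm the lowest livers were among mice 4N and 5R and the highest was mouse 6L, as for the macrophage sums, whose part was not tested.

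Golm1, a Golgi protein, had 6.06, 6.43, 8.06, 7.43 and 8.49 in WD SW livers, against 5.09 to 5.66 in CD NW livers (log2 fold change 1.89 ± 0.41, adjusted p = 0.0155). Golm1, Spink1, Akr1b10, Cbr3, Lcn2 and Lgals3, a galectin of macrophages, belong to the list of fetal liver and tumor markers and were called higher. Of its 30 genes 10 passed the filter and 20, Afp, Gpc3 and H19 among them, were not tested. Genes dim in CD NW livers could pass only through the WD SW livers, so no count over the 10 is given as a result. Of the 4 above background on all 10 arrays 2 were higher, beside 247 of all 6873 genes tested with that filter. In the cell cycle Cdkn2c, an inhibitor of cyclin-dependent kinases, had 7.45, 7.05, 7.53, 7.85 and 7.65, against 5.89 to 6.37 (log2 fold change 1.46 ± 0.17, adjusted p = 0.00131). Mcm4, of the replication helicase, had 7.85, 8.28, 8.57, 7.97 and 8.44, against 7.12 to 7.43 (log2 fold change 0.94 ± 0.15). Both were separated between diets in every liver. Stmn1 and Cdc20, which act in mitosis, were called only with mouse 5R (adjusted p = 0.0619 and 0.0735 without it). Mcl1, which blocks apoptosis, rose (log2 fold change 0.75 ± 0.15, adjusted p = 0.00997), and Bik, which promotes it, fell with all 5 livers (-1.01 ± 0.26, adjusted p = 0.0328) but not without mouse 5R (0.0547). The BH3 genes Bbc3 (adjusted p = 0.254) and Bcl2l11 (0.739) did not pass.

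Other hepatocyte programmes are counted here beside the 6.07% of all genes that were higher and the 3.7% that were lower. Of 23 hepatocyte transcription factors, Rxra, the shared partner of many nuclear receptors, was lower with adjusted p = 0.0472 (0.069 without mouse 5R) and 0 were higher, and Hnf4a had a log2 fold change of -0.17 ± 0.17 (adjusted p = 0.581). Of 22 secreted plasma proteins 1 was lower (4.55%) and of 20 coagulation genes 1 was higher (5%). Of 24 chaperone and unfolded protein response genes 1 was higher (4.17%), and of 17 one-carbon and choline genes 0 were called. In glucose metabolism, Pkm was among 17 glycolysis genes, of which 1 was higher and 1 lower. Of 16 gluconeogenesis and glycogen genes Gyg, the glycogen primer, was higher and 0 were lower. Pck1 had a log2 fold change of -0.18 ± 0.50 (adjusted p = 0.853). G6pc had 11.99, 11.98, 11.35, 9.28 and 10.41 in WD SW livers, against 11.83 to 12.95 in CD NW livers (adjusted p = 0.1). Of 17 peroxisome biogenesis genes, Pex16 and Pex11g were lower (11.8%) and 0 higher, and Pex11g lost its call in 9 of 22 alternatives. Of 19 clock genes 0 were called with all 5 livers, and 2 (Nr1d1 and Avpr1a) were lower without mouse 5R, beside 4.66% of all genes.

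**Figure D5:**
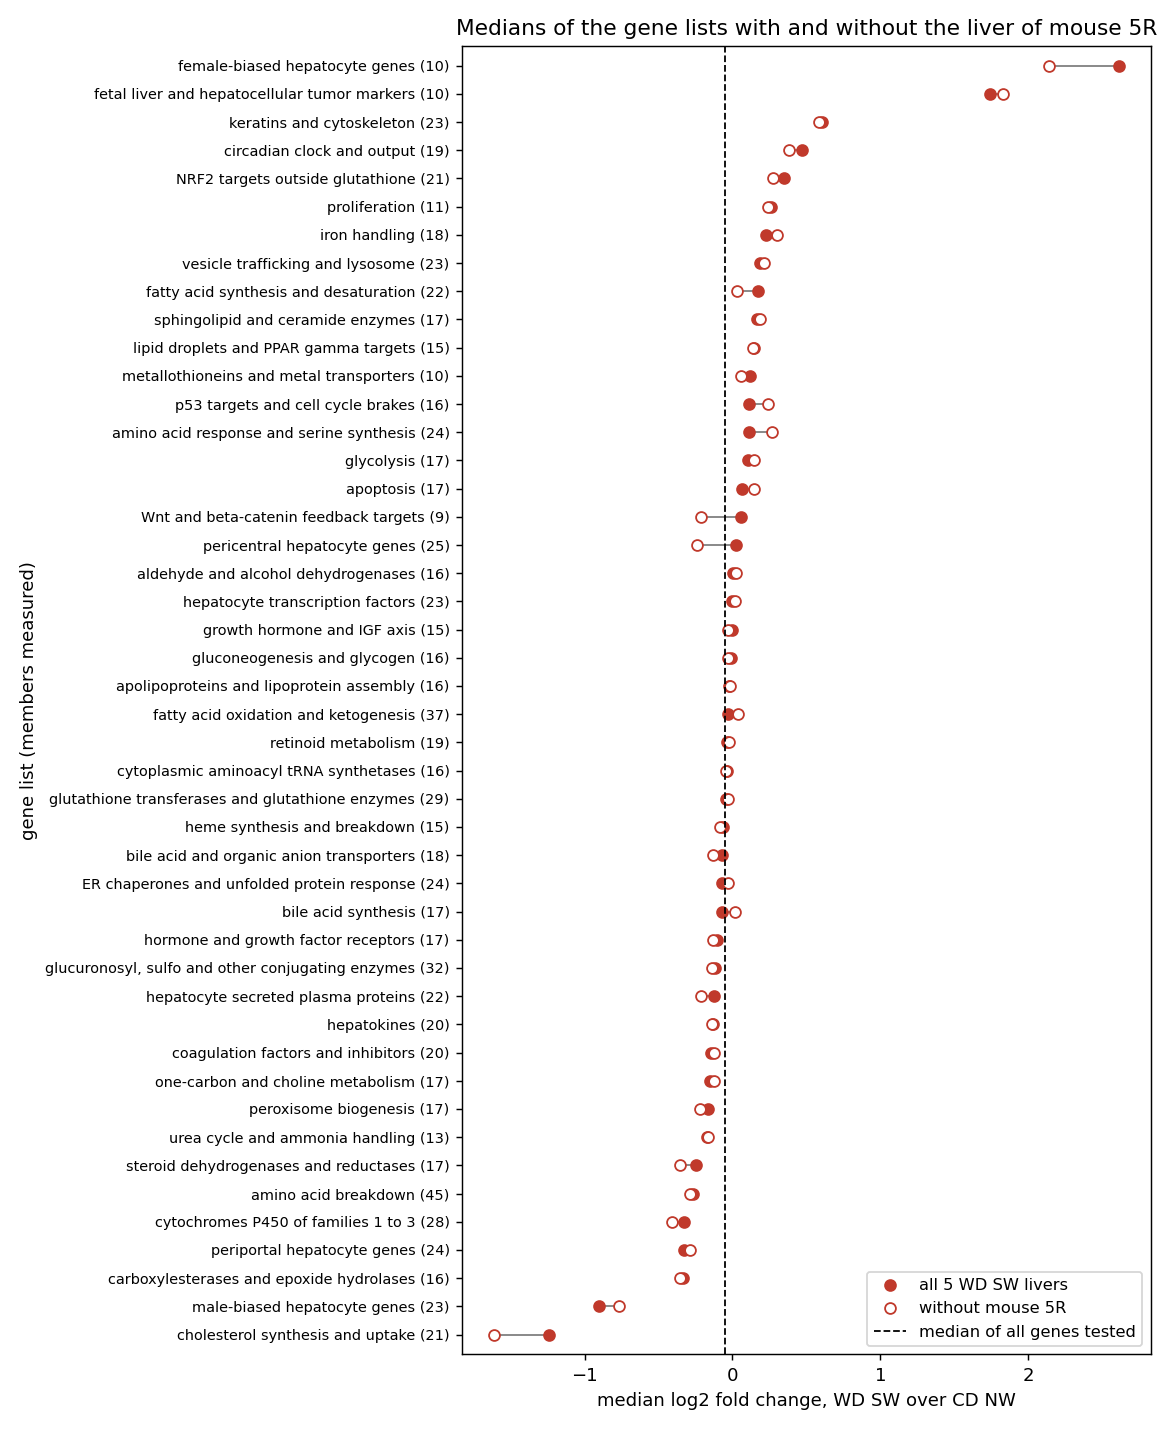
Median log2 fold change (WD SW over CD NW) of each list of hepatocyte genes with all 5 WD SW livers (filled points) and without mouse 5R (open points), with the number of members measured in brackets and the median of all genes as a dashed line. The cholesterol list moves from -1.24 to -1.61 when mouse 5R is left out. In the female-biased list and the list of fetal liver and tumor markers, genes dim in CD NW livers could pass the filter only through the WD SW livers. Their medians are therefore not given as a result. With no filter on dim probes the female-biased median was 1.35 over 24 genes, against 2.62 over the 10 genes shown.

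Of the 824 genes called with all livers, 722 were also called without it, and the log2 fold change was larger in size without mouse 5R in 561 of the 824, among them 201 of the 312 that fell. Besides the cholesterol genes, examples of genes lower only without mouse 5R were Apom (adjusted p = 0.0705 with mouse 5R and 0.0297 without it), Aldoc (0.103 and 0.00549), Klkb1 (0.0966 and 0.00956), Slc25a1 (0.141 and 0.0266) and Nr1d1 (0.113 and 0.0338). Aldoc, an aldolase, had 7.10, 6.96, 6.98, 8.80 and 5.63 in WD SW livers, against 7.86 to 8.57 in CD NW livers. In the other direction, Scd1, C8b, Cbs, Serpina1c, Rxra, Bik, Hgfac, Inhba, Pros1, Ugt3a1, Cyp2d10, Slc13a3, Tpm1, Ctsb, Stmn1 and Cdc20 lost their calls without it.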

How the data were processed

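The deposited values were linear bead intensities of 45281 probes on 15 arrays, not normalized by the authors. A second deposited table held the authors' processed intensities of the same arrays, and its log2 values were used as an alternative. Bead counts and detection values were not used here, so the number of arrays limits the precision. In R 4.3.3 with limma 3.58.1, intensities were background-corrected by normexp with an offset of 16, taking 1526 probes of olfactory, vomeronasal and trace amine receptors as negative controls, then quantile normalized over 15 arrays and taken to log2. A probe was above background at an empirical p under 0.01 against those controls. Probes above background on at least 5 of 10 liver arrays were kept, 12202 in all, and the brightest probe stood for a gene. Names came from the platform annotation (34885 probes with 1 symbol, 18 with several genes, 10378 with none), 34807 of them updated through RefSeq identifiers.

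The 5 WD SW and 5 CD NW livers were compared by lmFit and eBayes with a trend, with Benjamini-Hochberg adjustment over 8429 genes, and again without mouse 5R. Fold changes are on the log2 scale and errors are standard errors. The script was tested on simulated data. Replicates are separate mice; no extraction or scan batch was given in the sources used here. The genes described were the 15 largest rises and falls called in both comparisons, without overlap and outside immune patterns and markers of other cells; from every list the 6 best-ranked members by adjusted p at most, and those whose call changed when mouse 5R was left out; and 23 genes of diet and growth hormone response. Further list members, Alb among them, are named to show a level. The members and lists were chosen with earlier results of these data known. Figures were drawn with matplotlib.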

Additional observations from a re-analysis of the deposited data

Results flagged for a closer look

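In 21 of 360 groups of 5 livers examined (5.83%), 1 liver stood apart from the other 4 of its diet by Dixon's test; chance gives about 1 group in 20. Mouse 6L was the liver apart in 9 of these, 5N, 5R and 3N in 3 each, 2N in 2 and 1R in 1.

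Mouse 6L was low for Nat8 (9.73, others 10.38 to 10.50), Ghr (12.06, others 12.91 to 13.05), Ces1e (8.17, others 9.61 to 10.05), Hal (10.13, others 11.31 to 11.79), Amdhd1 (10.35, others 11.33 to 11.62) and Alb (8.45, others 10.01 to 10.18), all log2 levels in WD SW livers. It was high for Ugt2b34 (10.24, others 9.80 to 9.91), Slc30a10 (8.68) and Tagln2 (10.61, others 8.93 to 9.40). Mouse 5R was low for Cyp4a12a (8.96, others 12.53 to 13.92) and Gldc (10.84, others 12.17 to 12.63) and high for Pmvk (8.28, others 6.12 to 6.65). Mouse 5N was low for Atf4 (10.33, others 10.92 to 11.04) and Ugcg (9.39, others 9.92 to 9.98) and high for Cbr1 (10.85, others 9.54 to 9.86).

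Among CD NW livers, mouse 3N was low for Igfals (10.24, others 11.11 to 11.39) and Mcl1 (10.59, others 10.97 to 11.12) and high for Ftcd (13.75, others 13.45 to 13.53). Mouse 2N was high for Spink1 (4.89, others at most 4.50, all at background) and low for Anxa5 (7.94, others 8.93 to 9.29), and mouse 1R was high for Bcl6 (11.11, others 8.02 to 8.49).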

How the results depend on the processing

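The comparison of 5 WD SW with 5 CD NW livers called 824 genes, 512 higher and 312 lower. Median scaling called 126 lower genes, no filter on dim probes 206, and array weights 499. Detection on all 10 arrays called 499 genes, 247 of them higher, with 6873 genes tested in place of 8429. The label number as a random block (consensus correlation 0.309) called 441 genes, 319 higher and 122 lower. Leaving out 1 liver at a time gave 475 (without 2L) to 964 genes (without 5R), 342 to 571 higher and 133 to 393 lower. Without mouse 5R, where 964 genes were called, median scaling called 175 lower genes, and detection on all 10 arrays 623 genes with 291 higher. Leaving out a further liver there, an alternative chosen after seeing the data, gave 569 to 1086 genes, 383 to 622 higher and 186 to 464 lower, and leaving out mice 1L and 5R together gave 648. Beyond the smaller number of genes or samples, the cause was not tested. Of 180 genes tested by name 120 were called, 58 of them in all of up to 22 alternatives, 62 were lost in at least 1, and 0 reversed. The number of arrays and the stand-in negative controls limit what can be said of dim genes. No paired analysis was possible because the WD SW and CD NW livers came from different mice and share no label number.

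Leaving out 1 liver ended the following calls among the genes named above. Without WD SW mouse 4N the calls of Cebpg, Ces1f, Dhcr7, Etfb, Hgfac, Inhba, Lcn2, Pros1, Rhbg, Rxra, Scd1, Slc13a3, Sqle and Ugt2b34 were lost. Without WD SW mouse 4R the calls of Acot3, Bik, C8b, Cbs, Cebpg, Ces1f, Ces2a, Cidec, Cyp2d10, Cyp51, Dhcr7, Etfb, Gpx3, Hgfac, Inhba, Lcn2, Nsdhl, Pex11g, Pros1, Rxra, Scap, Scd1, Slc22a30, Slc30a10, Sqle, Ugt2b34 and Ugt3a1 were lost. Without WD SW mouse 5N the calls of Acsl4, Cbs, Cdc20, Ces1e, Ces2a, Ctsb, Cyp2d10, Dhcr7, Etfb, Gpx3, Gyg, Hgfac, Inhba, Pex11g, Rhbg, Rxra, Scap, Scd1, Serpina1c, Slc30a10, Sqle, Stmn1, Tm7sf2, Tpm1, Ugt2b34 and Ugt3a1 were lost. Without WD SW mouse 5R the calls of Bik, C8b, Cbs, Cdc20, Ctsb, Cyp2d10, Hgfac, Inhba, Pros1, Rxra, Scd1, Serpina1c, Slc13a3, Stmn1, Tpm1 and Ugt3a1 were lost. Without WD SW mouse 6L the calls of Bik, C8b, Cbr3, Cbs, Cdc20, Cebpg, Ces2a, Cidec, Ctsb, Cyp2d10, Dhcr7, Etfb, Gpx3, Gyg, Lcn2, Pex11g, Pros1, Rhbg, Scap, Serpina1c, Slc22a30, Sqle, Stmn1, Tpm1 and Ugt2b34 were lost. Without CD NW mouse 1L the calls of C8b, Cbr3, Cbs, Cdc20, Cebpg, Ces1e, Ces1f, Ces2a, Cidec, Cyp51, Dhcr7, Etfb, Gpx3, Gyg, Hgfac, Idi1, Inhba, Lcn2, Nsdhl, Pex11g, Rhbg, Rxra, Scd1, Serpina1c, Slc13a3, Slc22a30, Slc30a10, Sphk2, Sqle, Srebf2, Stmn1, Tm7sf2, Tpm1 and Ugt2b34 were lost. Without CD NW mouse 1R the calls of Acot3, C8b, Cbr3, Cbs, Cdc20, Cebpg, Ces1e, Ces1f, Cidec, Ctsb, Cyp2d10, Cyp51, Dhcr7, Etfb, Gpx3, Gyg, Hgfac, Idi1, Inhba, Nsdhl, Pex11g, Pros1, Rhbg, Scap, Scd1, Serpina1c, Slc13a3, Slc22a30, Slc30a10, Sqle, Srebf2, Stmn1, Tm7sf2, Tpm1, Ugt2b34 and Ugt3a1 were lost. Without CD NW mouse 2L the calls of Acot3, Acsl4, Bik, C8b, Cbr3, Cbs, Cebpg, Ces1e, Ces1f, Cidec, Ctsb, Cyp2d10, Cyp51, Dhcr7, Etfb, Gpx3, Hgfac, Inhba, Lcn2, Pex11g, Pros1, Rhbg, Rxra, Scap, Scd1, Serpina1c, Slc13a3, Slc22a30, Slc30a10, Sphk2, Sqle, Stmn1, Tm7sf2, Tpm1, Ugcg, Ugt2b34 and Ugt3a1 were lost. Without CD NW mouse 2N the calls of Bik, C8b, Cbr3, Cdc20, Cebpg, Ces1e, Ces1f, Ces2a, Cidec, Ctsb, Cyp2d10, Cyp2d13, Etfb, Gpx3, Gyg, Hgfac, Inhba, Lcn2, Pros1, Rhbg, Rxra, Scap, Scd1, Serpina1c, Slc13a3, Stmn1, Tm7sf2 and Tpm1 were lost. Without CD NW mouse 3N the calls of Bik, C8b, Cbr3, Cdc20, Cebpg, Ces1e, Ces1f, Ces2a, Cidec, Ctsb, Cyp2d10, Dhcr7, Hgfac, Lcn2, Rhbg, Rxra, Scap, Scd1, Serpina1c, Slc13a3, Sqle, Stmn1, Tpm1 and Ugt3a1 were lost.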
